A study of Gallus gallus with 3 samples.

Results

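The 4 genes described here, *FGF8*, *RSPO3*, *SP8* and *GBX2*, were taken as genes of the apical ectodermal ridge, and they were 4 of the 11442 genes with a column in at least 1 of the 3 expression tables. They were located by Ensembl gene identifier: ENSGALG00000007706 for *FGF8*, ENSGALG00000042607 for *RSPO3*, ENSGALG00000035725 for *SP8* and ENSGALG00000013342 for *GBX2*. All 4 had a column at HH25 and HH31, whereas at HH29 values of *RSPO3* and *SP8* were used and *FGF8* and *GBX2* were not analysed. The cells came from chicken hindlimbs at 3 Hamburger-Hamilton (HH) stages: the whole autopod (the future foot) at HH25, digits 3 and 4 at HH29, and the tip of digit 4 at HH31. The labels name no genotype and no treatment. HH25 and HH31 were made with 10x version 2 chemistry, and HH29 with DropSeq in 3 technical replicates. With 1 library per stage there was no biological replicate, and stage, platform and dissected tissue cannot be told apart. Every level is therefore given as the unique molecular identifiers (UMIs) of a gene per 1000000 UMIs of a cell population (CPM), summed over its cells, with an exact 95% Poisson interval, and no test was run. These intervals cover counting error only.

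The apical ectodermal ridge is a thickened strip of ectoderm along the distal rim of the limb bud that keeps the mesenchyme beneath it growing. It does so largely through fibroblast growth factors, of which FGF8 is expressed along the whole ridge. R-spondins such as RSPO3 are secreted proteins that bind LGR receptors and raise the response of a cell to WNT ligands, and WNT signalling through beta-catenin is needed in the ectoderm to form and keep the ridge. SP8 is a zinc-finger transcription factor of limb ectoderm that acts upstream of *FGF8* in the mouse. GBX2 is a homeodomain transcription factor best known from the midbrain-hindbrain boundary, where its domain adjoins that of *FGF8*.

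After the study's limits on UMIs and mitochondrial reads, 5788 of 5982 HH25 cells, 6806 of 6823 HH29 cells and 4583 of 4823 HH31 cells were kept. They held 13514494, 23846769 and 12867077 UMIs in total, and the median cell had 2064, 2946 and 2520. The ectoderm was taken from the deposited sub-clusters. It comprised 22 ridge cells (sub-cluster 7) and 207 skin cells (sub-cluster 8) in the HH25 library, and 182 and 347 skin cells in those of HH29 and HH31. Skin markers such as *EPCAM*, *CLDN1* and *DSP* summed to 2203 CPM in the ridge cells and 2362 CPM in HH25 skin. Within this sum *WNT6* made up 621 CPM of the ridge value, and *EPCAM* (113 and 320 CPM, log2 ratio -1.50, -2.97 to -0.35) and *KRT19* (169 and 457 CPM, -1.43, -2.58 to -0.48) were lower in the ridge. The median depth of ectodermal cells (2083, 3233.5 and 2594 UMIs) lay close to that of all other cells at the same stage (2063, 2940 and 2514). HH25 and HH31 shared 48 of their cell barcodes, of which 1 was an ectodermal cell at each stage. The sub-clusters were drawn by the authors from all genes, these 4 included, so the differences between sub-clusters are descriptions.

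The 4 genes did not share one domain within the HH25 ectoderm. *FGF8* and *RSPO3* marked the ridge cells, *SP8* was spread over ridge and skin, and *GBX2* was found in skin and at 0 in the ridge. In the ridge *FGF8* had 114 UMIs, or 2146 CPM (1770 to 2578), against 3 UMIs from a single cell, or 5.64 CPM (1.16 to 16.5), in skin. The log2 ratio of ridge to skin was 8.57 (6.99 to 10.87). *RSPO3* had 12 UMIs in the ridge, or 226 CPM (117 to 395), and 0 in skin. Against a floor of 3 UMIs over the skin cells it was at least 40.1-fold higher in the ridge, and the interval of the log2 ratio began at 4.80.

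*SP8* had 8 UMIs in the ridge, or 151 CPM (65.0 to 297), and 51 in skin, or 95.9 CPM (71.4 to 126). Its log2 ratio of ridge to skin was 0.65 with an interval from -0.64 to 1.74, so that a difference was not detectable at this depth. *GBX2* had 118 UMIs in skin, or 222 CPM (184 to 266), and 0 in the ridge, which allows up to 69.4 CPM there. Against a floor of 3 UMIs over the ridge cells it was at least 3.93-fold lower in the ridge than in skin, and the interval of the log2 ratio ended at -1.65. As a yardstick, 9.69% of the 4407 genes with at least 10 UMIs in ridge and skin together were at least 2-fold higher in the ridge, and 12.5% were at least 2-fold lower. The ridge sub-cluster was drawn by unsupervised clustering, to which these genes contributed, and the paper named it by *FGF8* and other enriched genes. The levels of *FGF8* and *RSPO3* there are therefore no check of its name. The counts of *GBX2* go against taking *GBX2* as a ridge gene in this tissue. After every cell was thinned to 1000 UMIs the bounds were nearer to 0, with a log2 ratio of at least 4.23 for *RSPO3* and at most -0.74 for *GBX2*.

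**Figure D1:**
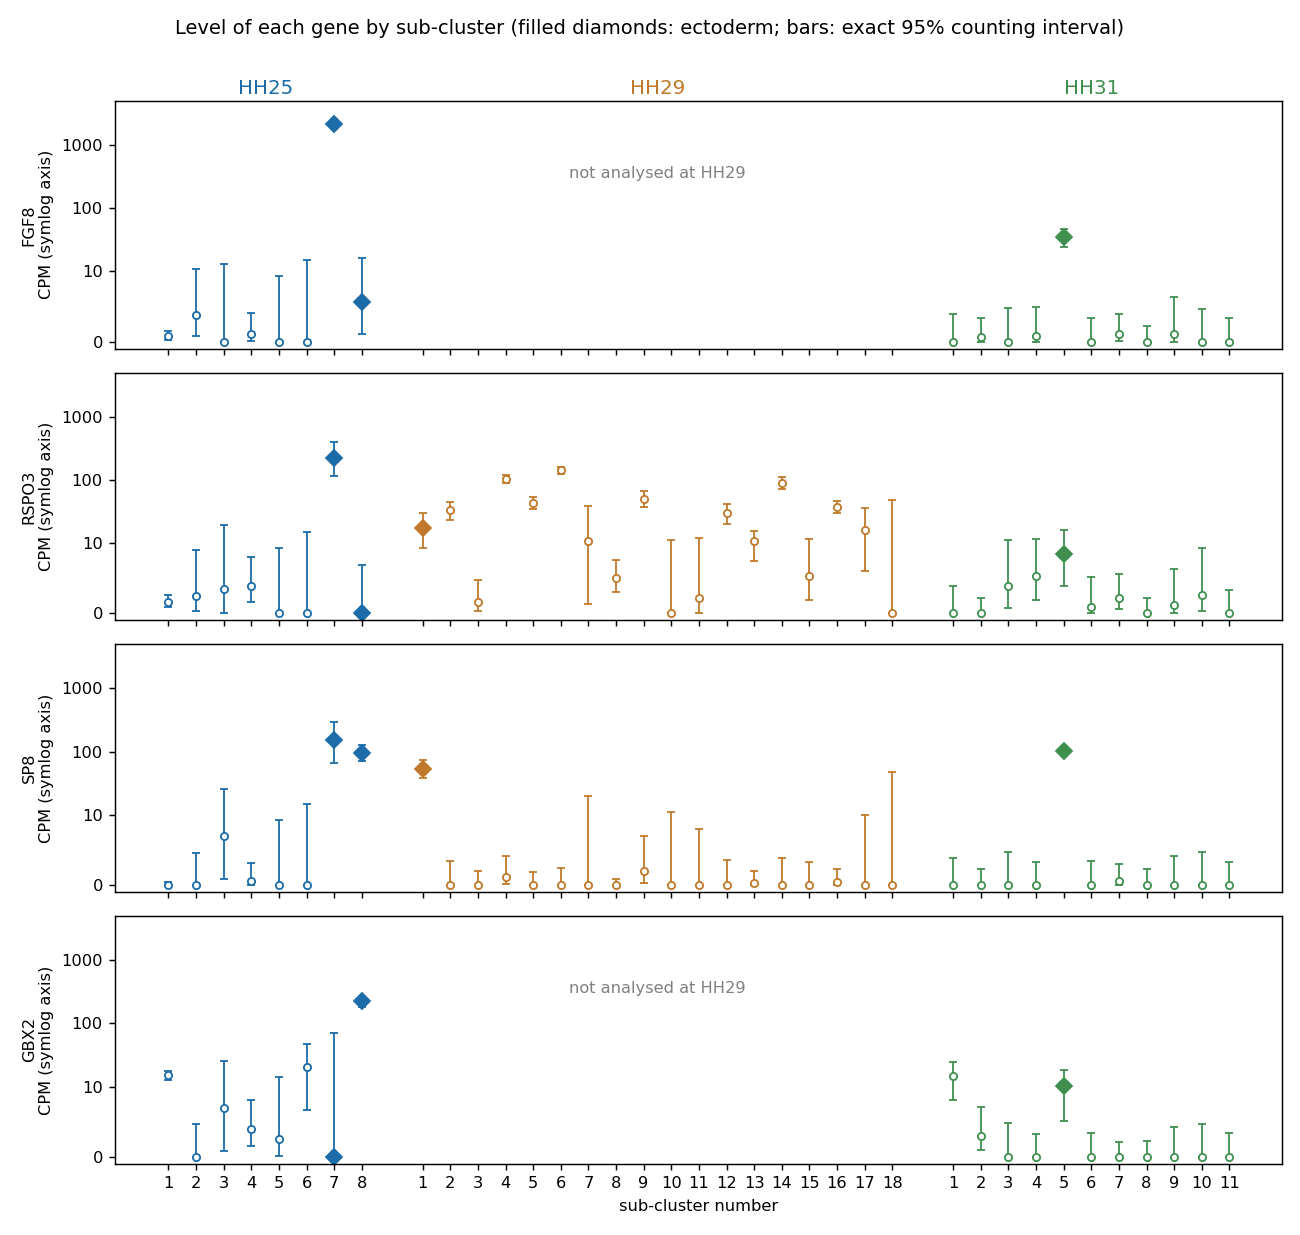
Level of each gene (CPM of summed UMIs, on a log axis that is linear near 0) in every sub-cluster of the 3 libraries, with exact 95% Poisson intervals. *FGF8* peaks in the HH25 ridge at 2146 CPM, *SP8* is high in each ectodermal sub-cluster, *RSPO3* is also high in several mesenchymal sub-clusters of HH29, and *GBX2* is highest in HH25 skin at 222 CPM.

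The ridge cells differed strongly among themselves in *FGF8*. The lowest of the 22 cells had 0 UMIs, the median was 3.5 and the highest 19, and 21 cells (95.5%) had at least 1. The 2 highest cells, with 19 and 18 UMIs, held 37 of the 114 UMIs (32.5%). Without these 2 cells the log2 ratio of ridge to skin was 8.30. *RSPO3* was found in 9 of the 22 cells, with 1 UMI in 6 cells and 2 UMIs in 3. *SP8* was found in 5 cells, 4 of them with 1 UMI and 1 with 4. The 2 cells with the most *FGF8* held neither *RSPO3* nor *SP8*. UMIs of epithelial genes were present in 21 of the 22 cells (81 UMIs), and UMIs of mesenchymal genes in 4 cells (4 UMIs). The limb mesenchyme markers summed to 75.3 CPM in the ridge and 62.0 CPM in skin, with 3 of the 6 at 0 in the ridge. The red blood cell markers summed to 113 CPM in the ridge and 105 CPM in skin and the cartilage markers to 75.3 and 152 CPM, with 4 of 5 at 0 in the ridge. Markers of muscle, leukocytes and smooth muscle were at 0.

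**Figure D2:**
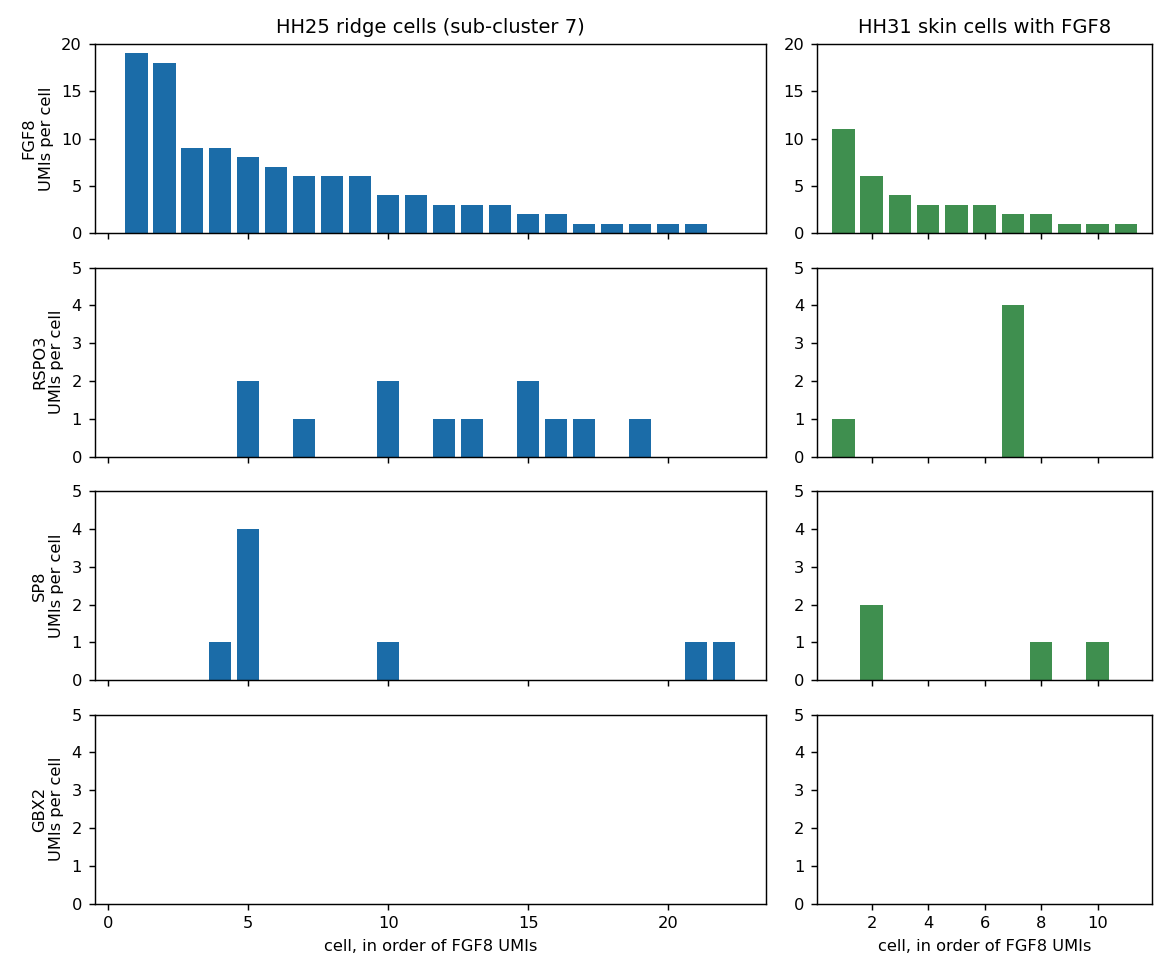
UMIs of each gene in each single ridge cell of HH25 (22 cells) and each HH31 skin cell with *FGF8* (11 cells), cells ordered by *FGF8*. *FGF8* runs from 0 to 19 UMIs at HH25 and from 1 to 11 at HH31, and the *GBX2* panels are empty because all these cells had 0 UMIs.

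Within single ectodermal cells of HH25, *RSPO3* was found only together with *FGF8* and *GBX2* only without it. Of the 229 ectodermal cells 22 held *FGF8*, 21 in the ridge and 1 in skin, and all 9 cells with *RSPO3* were among these 22 (40.9%). *GBX2* was found in 0 of the 22 cells with *FGF8* and in 77 cells without it (37.2%). *SP8* was found in 4 of the 22 cells with *FGF8* (18.2%) and in 21.7% of the cells without. Since *FGF8* and *GBX2* contributed to the sub-clusters but single cells were sorted here by *FGF8* alone, these counts do not depend on where the border between ridge and skin was drawn. In skin, *GBX2* was found in 77 of 207 cells, of which 48 had 1 UMI, 19 had 2 and 10 had 3 or more. *SP8* was found in 44 skin cells, and 14 cells held both, which is 31.8% of the cells with *SP8* against 38.7% of those without. Most cells had 1 or 2 UMIs of these genes, so an absent gene in 1 cell may be a missed molecule.

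Outside the ectoderm the genes also differed. At HH25 *SP8* was at 0 of 3972 cells in the mesenchyme (sub-cluster 1), which allows a share of up to 0.0928%, against 44 of 207 skin cells (21.3%). Median depth was 2101.5 UMIs in the mesenchyme and 2108 in skin. *GBX2*, in contrast, was found in 138 of the same 3972 mesenchymal cells (3.47%), with 141 UMIs or 15 CPM (12.6 to 17.7). The ratio of *SP8* to *GBX2* UMIs was thus 51 to 118 in skin and 0 to 141 in the mesenchyme. The part of free RNA in these counts was not tested. Among the other mesenchymal sub-clusters *GBX2* was at 0 in the connective tissue (sub-cluster 2) and at 3.92 CPM in the chondrocytes (sub-cluster 4). In the distal mesenchyme (sub-cluster 5) it was at 2.52 CPM (0.0639 to 14.1), from 1 UMI. Muscle, from 5 UMIs, was at 20.3 CPM (6.60 to 47.5). The log2 ratio of sub-cluster 1 to sub-clusters 2 and 4 together, without sub-cluster 5, was 2.46 (1.38 to 3.81). *FGF8* was at 0.743 CPM and *RSPO3* at 1.59 CPM in sub-cluster 1. Within sub-cluster 1, the 138 cells with *GBX2* and the 3834 without were compared for the listed genes, of which 1 of 32 was at least 2-fold higher and 3 were lower, beside 6.49% and 5.36% over all genes. The 3 were *FGFR2*, *LGR4* and *BMP2*, of which only *BMP2* had an interval below 0 (8.12 and 46.2 CPM, -2.51, -4.79 to -0.95), and the 1 higher gene, *TFAP2C*, rested on 1 UMI.

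Set against all other cells of its library, the ectoderm was higher in all 4 genes at HH25 and HH31. The authors kept a gene only where it was found in at least 15 cells (30 at HH29). Outside the ectoderm *FGF8* had 12 UMIs at HH25 and 5 at HH31, and *SP8* had 3, 6 and 1 at the successive stages. Among the cells kept here these counts lie below that limit. A higher ectodermal level of both genes was thus in part a condition of their having a column. At HH25 *FGF8* was at 200 CPM in the ectoderm and 0.928 CPM elsewhere, and at HH31 at 34.7 and 0.424 CPM, with log2 ratios of 7.75 and 6.36 (5.01 to 8.06). *SP8* was at 101 CPM in the HH25 ectoderm and 0.232 CPM elsewhere, at 53.9 and 0.260 CPM in the HH29 library, and at 103 and 0.0847 CPM in that of HH31. It was the only 1 of the 4 with a log2 ratio above 7 in every library (8.76, 7.70 and 10.25), and in the HH29 technical replicates the ratio was 7.52, 7.31 and 8.41. The ectodermal *SP8* level in these replicates was 60.8, 35.7 and 65.8 CPM, from 15, 9 and 16 UMIs, and their intervals overlap. *GBX2* was at 202 CPM in the HH25 ectoderm and at 10.3 CPM in that of HH31, against 12.1 and 1.61 CPM elsewhere. Its log2 ratio was 4.06 (3.71 to 4.42) at HH25 and 2.68 (1.46 to 3.83) at HH31. *RSPO3* was higher in the ectoderm at HH25 (20.5 and 1.93 CPM, log2 ratio 3.41, 2.28 to 4.45) and at HH31 (8.45 and 1.44 CPM, 2.55, 1.2 to 3.80) but lower at HH29 (17.5 and 36.5 CPM, -1.06, -1.97 to -0.28). All 12 of its ectodermal UMIs at HH25 were in the ridge, whereas the later ectoderm was a skin sub-cluster. Of all genes with at least 10 UMIs, 9.82%, 8.76% and 6.83% were at least 2-fold higher in the ectoderm of the successive stages, and 11.9%, 12% and 15.9% at least 2-fold lower. Where the ectoderm was instead defined by UMIs of at least 2 of 8 epithelial genes, the log2 ratio at HH25 was 6.39 for *FGF8*, 1.93 for *RSPO3* and 5.68 for *SP8*, and at HH31 it was 4.61 for *FGF8* and 7.35 for *SP8*.

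Shares of cells with a UMI were compared after thinning to 1000 UMIs per cell, and those of *SP8*, *GBX2* and *FGF8* were higher in the ectoderm. For *SP8* and *FGF8* the authors' limit on cells per gene bears on these shares as well. *SP8* was found in 12.2% of ectodermal and 0.0180% of other cells at HH25, 3.85% and 0.0151% in the HH29 library, and 12.1% and 0 in that of HH31. The unthinned shares of ectodermal cells were 21.4%, 14.8% and 26.2%. For *GBX2* the thinned shares were 15.7% and 1.30% at HH25 and 1.44% and 0.189% at HH31. *FGF8* was found in 8.30% of thinned ectodermal cells at HH25 and 2.02% at HH31, against 0.0899% and 0.0236% elsewhere. *RSPO3* was found in 5 of 229 thinned ectodermal cells at HH25 (2.18%, 0.713% to 5.02%) and in 0.234% of the other cells (0.125% to 0.40%). At HH29 it was found in 3 of 182 (1.65%, 0.341% to 4.74%) and 3.29% (2.88% to 3.75%), and at HH31 in 2 of 347 (0.576%, 0.0699% to 2.07%) and 0.236% (0.113% to 0.434%). The intervals overlap at both later stages, so a difference in these shares was not detectable there.

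Listed genes of the FGF, R-spondin and WNT pathways, and listed regulators of the ridge and limb ectoderm, were compared between ridge and skin at HH25. The lists were chosen with earlier results of these data known, so the counts below are no test of these pathways. Of the 74 listed genes 35 were measured and 27 reached 10 UMIs, of which 12 (44.4%) were at least 2-fold higher in the ridge and 3 (11.1%) at least 2-fold lower, beside 9.69% and 12.5% over all genes. Of the 3 FGF receptors with 10 UMIs, *FGFR2* had an interval below 0. This receptor, whose epithelial form binds mesenchymal FGFs, was at 75.3 CPM in the ridge and 297 CPM in skin (log2 ratio -1.98, -3.87 to -0.60). *FGFR1* rested on 1 UMI in the ridge (-1.43, -6.79 to 1.17), and *FGFR3* was at 18.8 and 16.9 CPM. Of the genes induced by FGF signalling, the phosphatase *DUSP6* and the transcription factor *ETV5* had log2 ratios of 1.59 and 1.45, with intervals that include 0.

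Of the 5 WNT response genes measured, 4 were at least 2-fold higher in the ridge. *APCDD1*, a membrane inhibitor of WNT signalling, was at 489 CPM in the ridge and 41.4 CPM in skin (3.56, 2.69 to 4.45). *AXIN2*, a general WNT target and feedback inhibitor, was at 75.3 and 15 CPM (2.32, 0.14 to 4.22). The feedback inhibitor *NKD1* (1.74) and the pseudoreceptor *BAMBI* (1.32) had intervals that include 0, and *LEF1* was at 37.7 and 30.1 CPM. Among WNT ligands and core components, the receptor *FZD9* was at 169 and 15 CPM (3.49, 1.95 to 5.07) and *CTNNB1*, which encodes beta-catenin, at 1431 and 417 CPM (1.78, 1.38 to 2.16). The ectodermal ligand *WNT6* (621 and 421 CPM, 0.56) and the ligand *WNT5A* (471 and 337 CPM, 0.48) differed less. *WNT5A* was lower in the HH25 ectoderm than in all other cells (349 and 599 CPM). *LGR4*, a receptor of R-spondins, was at 37.7 CPM in the ridge and 65.8 CPM in skin (-0.81, -3.91 to 1.16).

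Of the 9 ridge and limb ectoderm regulators with 10 UMIs, 4 were at least 2-fold higher in the ridge. The homeobox genes *MSX2* (847 and 69.6 CPM, 3.61) and *MSX1* (282 and 48.9 CPM, 2.53) and the secreted factor *BMP4* (565 and 52.6 CPM, 3.42) had intervals above 1, while that of *BMP2* (1.62) includes 0. *MSX2* and *BMP4* were also among the ridge markers used to check the label. *DLX5* lay at nearly equal levels (339 and 306 CPM, 0.14, -0.65 to 0.85). *EN1*, a gene of ventral limb ectoderm, was at 56.5 and 56.4 CPM, but from 3 UMIs in the ridge. The interval of its log2 ratio was wide (-2.35 to 1.69), so a difference in either direction was not detectable.

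**Figure D3:**
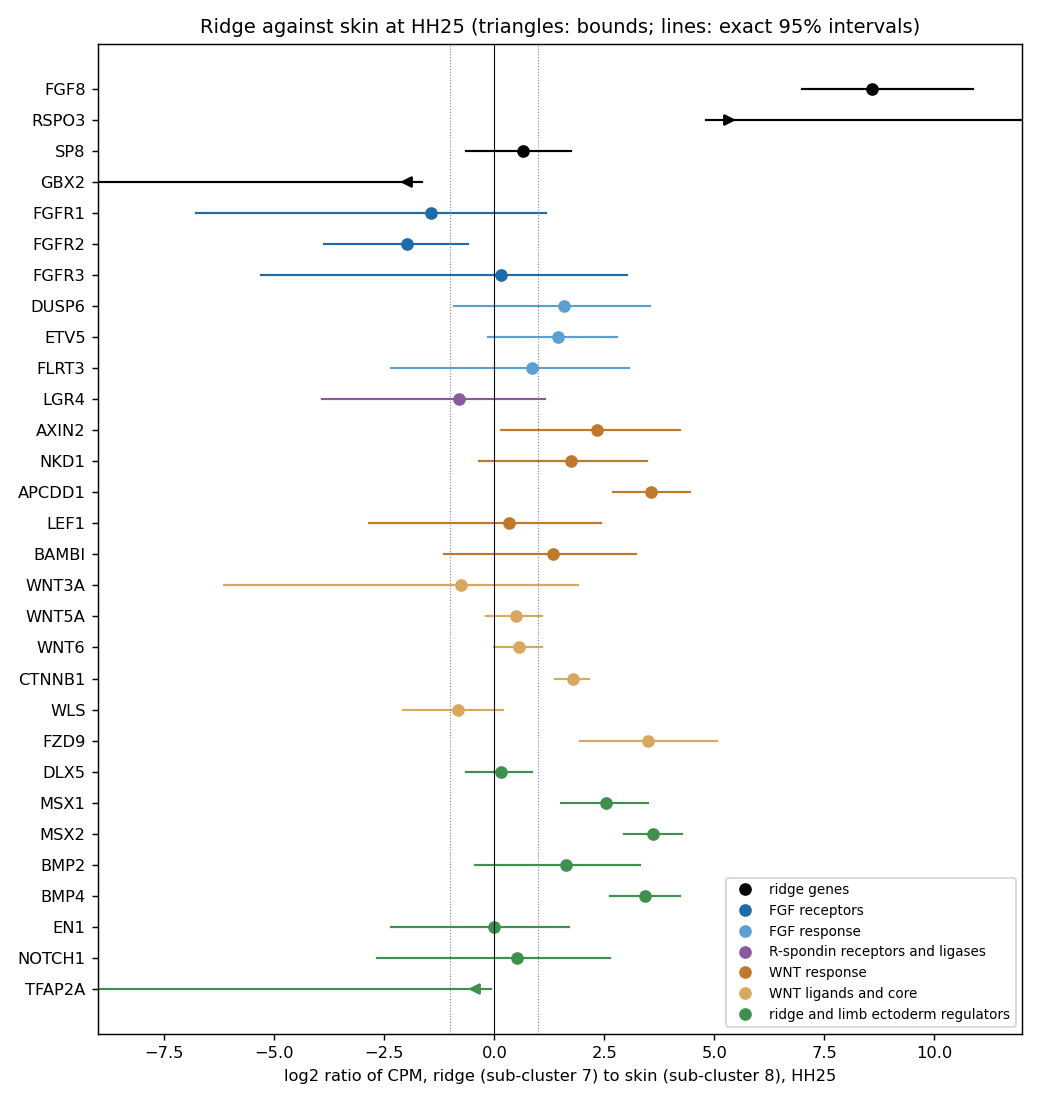
Log2 ratio of CPM, ridge to skin at HH25, for the 4 genes and listed pathway genes and ectoderm regulators with at least 10 UMIs. Exact 95% intervals are shown and bounds are drawn as triangles. *FGF8* lies at 8.57, *MSX2*, *APCDD1*, *FZD9* and *BMP4* lie between 3.42 and 3.61, and *FGFR2* lies at -1.98.

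At HH29 *RSPO3* was chiefly a mesenchymal gene. Its level was 142 CPM (123 to 162) in an interdigit sub-cluster (6), from 211 UMIs in 113 of 473 cells. It was 105 CPM (90.3 to 121) in a connective tissue sub-cluster (4) and 89.0 CPM (71.0 to 110) in sub-cluster 14, whose name refers to *SFRP2*. A second connective tissue sub-cluster (9) followed at 50.7 CPM, and skin came ninth of 18 at 17.5 CPM (9.33 to 29.98). The lowest values above 0 were 2.17 CPM in muscle and 1.64 CPM in late chondrocytes, the distal mesenchyme (8) was at 5.01 CPM, and endothelium and leukocytes were at 0. Between neighbours in this order the intervals failed to overlap in 2 places, between sub-clusters 6 and 4 and between 14 and 9. Thinned to 1000 UMIs, 12.7% of the cells of sub-cluster 6 held *RSPO3*, 7.92% of sub-cluster 14, 7.41% of sub-cluster 4 and 0.179% of the distal mesenchyme. Sub-clusters 14 and 4 thus stood in the opposite order to their CPM, in shares whose intervals overlap (5.14% to 11.6% and 5.34% to 9.95%).

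The technical replicates gave *RSPO3* levels of 163, 144 and 96.1 CPM in sub-cluster 6 and 124, 98.0 and 84.4 CPM in sub-cluster 4. All 6 values were above the 53.5, 45.1 and 55.9 CPM of sub-cluster 9. Sub-clusters 4 and 6 together were at 122 CPM and all other cells at 22.4 CPM, a log2 ratio of 2.44 (2.24 to 2.64), with 2.51, 2.49 and 2.17 in the replicates. These 2 sub-clusters were chosen because the study's marker tables list *RSPO3* for them. The ratio of skin to all other cells was less stable, at -0.36, -1.13 and -2.88 in the replicates, since skin held 8, 4 and 1 *RSPO3* UMIs.

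**Figure D4:**
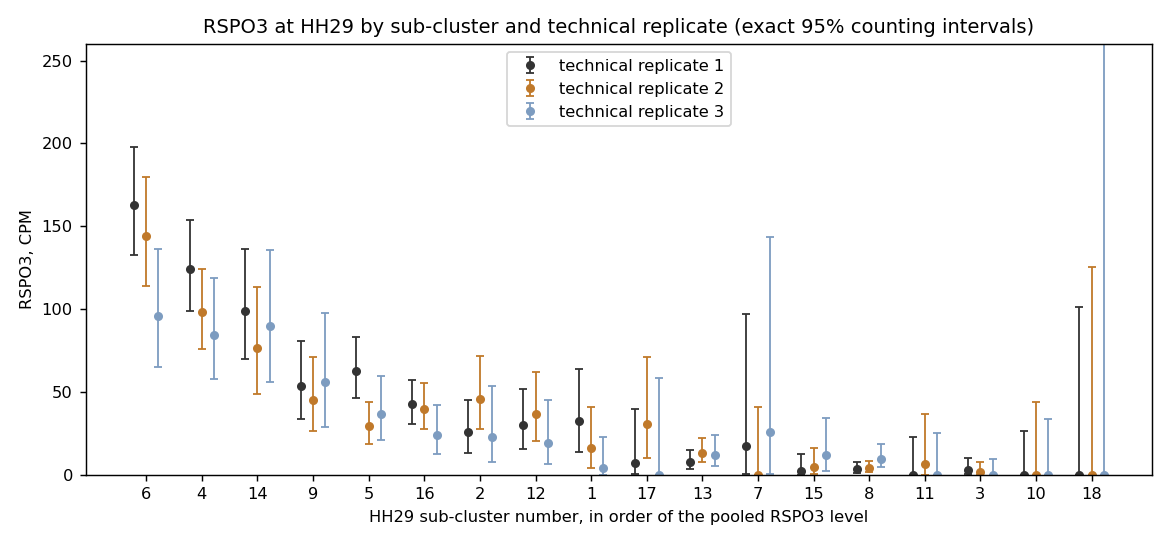
*RSPO3* level (CPM) in the 18 sub-clusters of HH29, 1 point per technical replicate with its exact 95% Poisson interval, where an interval past the axis limit is cut. Sub-cluster 6 has 163, 144 and 96.1 CPM, and skin has 32.4, 15.9 and 4.12 CPM.

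In sub-clusters 4 and 6, where the CPM of *RSPO3* was highest, listed genes were higher about as rarely as all genes and more often lower. Sub-clusters were compared here, not cells with and without *RSPO3*. All other cells held 462 *RSPO3* UMIs, against 394 in sub-clusters 4 and 6. Of 35 genes, 1 was at least 2-fold higher in sub-clusters 4 and 6 than elsewhere and 12 were at least 2-fold lower, beside 3.61% and 6.05% over all genes. The 1 higher gene was *WNT11*, a ligand that often acts without beta-catenin, at 93.7 and 20.5 CPM (2.19). None of the 5 WNT response genes passed the fold in either direction: *AXIN2* was at 53.5 and 46.5 CPM and *NKD1* at 145 and 139 CPM. *MSX2* was at 32.2 and 206 CPM (-2.68), *WNT5A* at 260 and 563 CPM (-1.11) and *DLX5* at 13.3 and 65.9 CPM (-2.31). *TFAP2A* was at 3.09 and 41.8 CPM (-3.76) and *DLX6* at 0.618 and 7.33 CPM (-3.57).

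In HH29 skin 9 cells held *RSPO3*, 8 with 1 UMI and 1 with 5. Compared with the 173 skin cells without it, 7 of 29 listed genes were at least 2-fold higher and 0 lower, beside 10.5% and 8.73% over all genes. *MSX2* was at 333 and 44.9 CPM (2.89, 1.95 to 3.79), *APCDD1* at 98.1 and 7.24 CPM (3.76, 1.64 to 5.88) and *AXIN2* at 118 and 27.5 CPM (2.10, 0.48 to 3.48). *MSX1* (1.67) and *WNT6* (1.37) had intervals above 0, and *FLRT3* (1.25) and *IL17RD* (1.17) had not. *SP8* was at 58.9 and 53.6 CPM (0.14). The limb mesenchyme markers also differed, at 608 CPM in the cells with *RSPO3* and 430 CPM in those without, with all 6 present in both. All 9 cells with *RSPO3* had epithelial UMIs (136 in all), and 7 had mesenchymal UMIs (31 in all). *MSX1* was at 213 CPM in HH29 skin and 730 CPM in all other cells, and *MSX2* at 64.7 and 186 CPM. Of the 7 higher genes, *WNT6* (185 and 0.649 CPM) and *FLRT3* (63.4 and 34.1 CPM) were higher in skin. The part of mesenchymal RNA in these values was not tested.

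At HH31 no sub-cluster was named for the ridge, and 11 of the 347 skin cells (3.17%) held *FGF8*. They had 11, 6, 4, 3, 3, 3, 2, 2, 1, 1 and 1 UMIs, so that 2 cells held 17 of 37. The cells were no deeper than the others, with a median of 2010 UMIs against 2618 in the 336 cells without *FGF8*. *RSPO3* was at 159 CPM in the cells with *FGF8* and 3.87 CPM in those without (log2 ratio 5.36, 3.15 to 7.70), but this rested on 5 UMIs, 4 of them in 1 cell that had 0 UMIs of the epithelial genes. Of the 11 cells, 9 had epithelial UMIs (57 in all) and 3 had mesenchymal UMIs (7 in all). By cells, *RSPO3* was found in 2 of 11 with *FGF8* and 1.19% of those without. *SP8* was at 127 and 102 CPM (0.31, -1.59 to 1.71). *GBX2* was at 0 of 11 cells with *FGF8* and in 2.68% of those without, and 0 of 11 cells cannot show a difference from that share.

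Of 28 listed genes, 12 (42.9%) were at least 2-fold higher in the HH31 cells with *FGF8* and 1 was lower, beside 14.5% and 5.12% over all genes with at least 10 UMIs. Of the 12, *FZD9*, *BMP2* and *TP63* rested on 1 UMI in the cells with *FGF8*, and *BAMBI*, *WNT3A* and *NOTCH1* had intervals that include 0. *EN1* (0 against 87 UMIs), *FGFR3* (0 against 63) and *JAG2* (0 against 45) were at 0 in the cells with *FGF8* and could not be called lower at this depth. *APCDD1* was at 350 and 31.9 CPM (3.46, 2.32 to 4.48), *AXIN2* at 127 and 15.5 CPM (3.04, 1.0 to 4.67) and *CTNNB1* at 1529 and 348 CPM (2.13, 1.67 to 2.57). *BMP4* was at 255 and 15.5 CPM (4.04, 2.61 to 5.35), *MSX2* at 223 and 59.0 CPM (1.92) and *MSX1* at 446 and 160 CPM (1.48). The 1 lower gene was *TFAP2A* (-1.79, -7.11 to 0.72), an early ectodermal transcription factor. *WNT6* was at 573 and 319 CPM (0.85, 0.07 to 1.53). The ectoderm markers summed to 2516 and 2745 CPM and the mesenchyme markers to 223 and 161 CPM. Within the ectoderm sum *KRT19* (127 and 493 CPM, -1.95, -3.83 to -0.59) and *COL17A1* (255 and 624 CPM, -1.29, -2.51 to -0.30) were lower. *ESRP2* had 0 against 101 UMIs, with an interval that includes 0. In the other direction lay *WNT6*, as given above, and *CLDN1* (573 and 341 CPM, 0.75, -0.02 to 1.43). The red blood cell markers summed to 1815 and 862 CPM, and their part in the result was not tested.

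The HH25 ridge gave 32 genes, these 4 excluded, that were at least 2-fold higher than in skin among genes with at least 50 UMIs. They were chosen on HH25 counts, and their values in the HH31 library did not enter the choice. Of the 30 with 50 UMIs at HH31, 12 (40%) were at least 2-fold higher in the skin cells with *FGF8* and 5 were lower, beside 6.04% and 15% over all genes with 50 UMIs. The median log2 ratio of the 30 genes was 0.53, and 0 over all genes. Of the 226 genes that were lower in the HH25 ridge, 2 of 223 were higher in these HH31 cells and 73 were lower. *PHLDA2*, an imprinted growth regulator in mammals, had log2 ratios of 3.52 at HH25 and 4.49 at HH31. *CSRP2*, a LIM-domain protein of the actin cytoskeleton, had 3.78 and 3.34, and *NET1*, an exchange factor for RhoA, 2.44 and 2.25. *GJA1*, the gap junction protein connexin 43, had 1.4 and 2.33. Without the 2 cells with the most *FGF8* the share was 36.7%, and with a minimum of 100 UMIs it was 62.5%, or 5 of 8 genes.

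**Figure D5:**
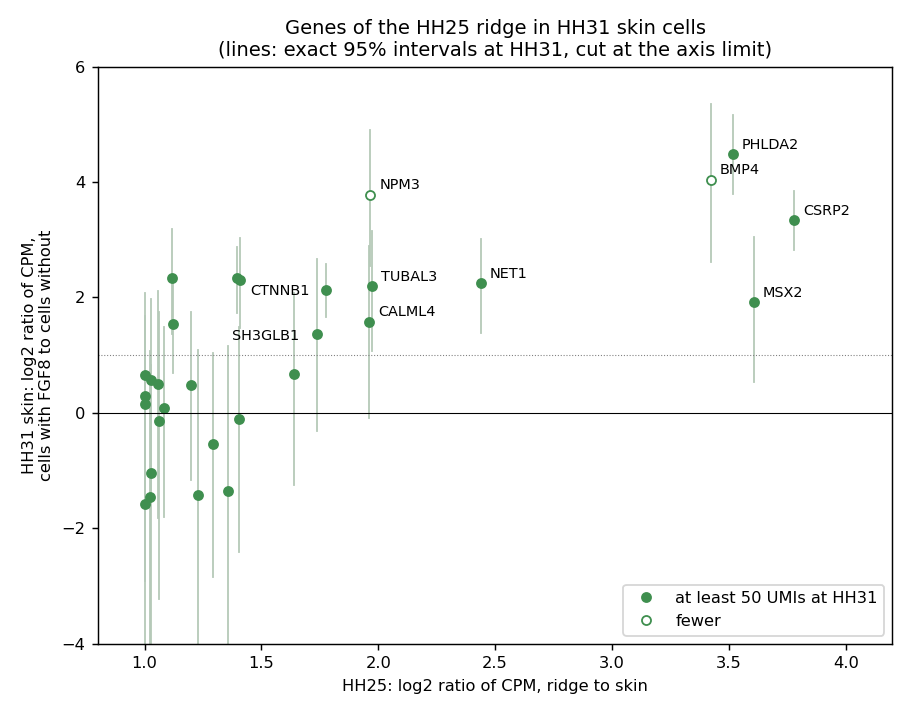
Log2 ratio of CPM of the genes higher in the HH25 ridge than in skin (x axis) against the log2 ratio in HH31 skin, cells with *FGF8* to cells without (y axis), with exact 95% intervals at HH31. Filled points have at least 50 UMIs at HH31, open points (*NPM3* and *BMP4*) fewer, and genes at 0 in the cells with *FGF8* are not drawn. *PHLDA2*, *CSRP2*, *MSX2* and *NET1* lie above 1 on both axes.

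At HH29, where the skin cells were sorted by *RSPO3*, 4 of the 23 measured genes of the HH25 ridge were at least 2-fold higher and 3 were lower. Over all genes with 50 UMIs these shares were 3.49% and 11.9%. *CSRP2* and *NET1* were the 2 of these 23 that were higher at both HH29 and HH31. Among ridge genes below 50 UMIs at HH29, and so outside the 23, *MSX2* (2.89, 1.95 to 3.79) and *PHLDA2* (3.12, 2.18 to 4.03) had intervals above 0 there. The others, *BMP4* among them (-0.15), had intervals that include 0.

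*GBX2* outside the ectoderm was also seen at HH31, in cartilage. Late chondrocytes (sub-cluster 1) had 14 UMIs in 14 cells, or 14.8 CPM (8.07 to 24.8), early chondrocytes (sub-cluster 2) 5 UMIs, or 3.03 CPM, and skin 11 UMIs in 9 cells, or 10.3 CPM (5.15 to 18.5). The intervals of late chondrocytes and skin overlap. The other 8 sub-clusters were at 0. *SP8* was at 0 in both chondrocyte sub-clusters. The highest *GBX2* level of the HH31 library was thus outside the ectoderm, and that of the HH25 library was in skin. *RSPO3* was low in every HH31 sub-cluster. It was highest in skin at 8.45 CPM (3.86 to 16), followed by an interdigit sub-cluster (4) at 5.27 CPM and connective tissue at 3.87 CPM, and 4 of 11 sub-clusters were at 0. *FGF8* had 5 UMIs outside the skin of HH31, spread over 4 sub-clusters with 1 or 2 each.

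Over the sub-clusters, the genes whose levels were most like those of each gene were ranked by Pearson's r of log2(CPM + 10), as a description, since sub-clusters of 1 library share its depth and chemistry. For *FGF8*, over the 19 sub-clusters of HH25 and HH31 and 8232 genes, *RSPO3* came first (r = 0.97), followed by the receptor tyrosine kinase gene *KIT* (0.94), an unnamed gene (ENSGALG00000029768, 0.94), the homeobox gene *DBX2* (0.93) and ENSGALG00000009792 (0.93). All 5, like *FGF8*, were highest in the HH25 ridge, which has 22 cells and 53118 UMIs. Their r therefore rests largely on 1 of the 19 sub-clusters. Over all 37 sub-clusters, *SP8* was most like *WNT6* (0.996), the tight junction genes *CLDN1* (0.99) and *CLDN3* (0.97), *otokeratin* (0.96) and the epithelial splicing regulator *ESRP2* (0.96). *RSPO3* was less like any gene, with 0.85 and 0.80 for 2 unnamed genes (ENSGALG00000029095 and ENSGALG00000042066), then *SDK1* (0.80), *APCDD1L* (0.77) and ENSGALG00000005256 (0.77). The 2 unnamed genes with 0.85 and 0.80 were highest in the HH25 ridge at 18.8 CPM, which is 1 UMI there. *GBX2* was followed by ENSGALG00000040084 (0.87), the basement membrane collagen gene *COL4A6* (0.85), *STXBP6* (0.85), *FNDC1* (0.82) and ENSGALG00000038772 (0.80). Among the 4 genes, r over the 19 sub-clusters of HH25 and HH31 was 0.76 for *FGF8* and *SP8*, 0.46 for *SP8* and *GBX2*, -0.05 for *FGF8* and *GBX2* and -0.19 for *RSPO3* and *GBX2*. For *RSPO3* and *SP8* it was 0.24 over all 37 sub-clusters, those of HH29 included, and is not comparable with the others. These lists depended on the pseudocount and the measure, and by Spearman's rho 0 of the 5 genes were kept for *FGF8*, *SP8* and *GBX2*.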

How the data were processed

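Single-cell RNA-seq of chicken hindlimb cells was analysed at HH25, HH29 and HH31, 1 library each. The deposited tables hold raw UMI counts per cell, made by the authors by mapping to the Gallus_gallus-5.0 genome (Cell Ranger 2 is named in the submitters' processing notes). The authors' cell cycle scores and cluster numbers stand beside the counts as deposited, and the scores were not used. Genes were kept by the authors only where found in at least 15 cells (HH25, HH31) or 30 cells (HH29).

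Cells above 4 times the mean UMIs, below 20% of the median, or with over 10% of UMIs from 12 named mitochondrial genes were left out; a ribosomal limit was not applied and doublets were not removed. UMIs were summed per sub-cluster and divided by all UMIs (CPM). Levels have exact Poisson, ratios exact conditional binomial and shares Clopper-Pearson 95% intervals. PCR and cell sampling errors are not covered. A sum of 0 was set to a floor of 3 UMIs over the population. Genes with at least 10 UMIs in both populations together were called at a 2-fold ratio. Thinning drew 1000 UMIs per cell (seed 11), leaving out 2 cells at HH29. Scripts (Python 3.11.15, numpy 2.4.6, pandas 2.3.3, scipy 1.17.1) were tested on simulated data.

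The 4 genes and all lists were chosen with earlier results of these data known. Named were the 4 genes, the 5 genes most like each, and list genes past the fold, at most 4 per direction; other genes named (those of the HH25 ridge seen again at HH31, the cell cycle genes, and list genes given for contrast) were chosen after their values were seen. Symbols came from the study's supplementary name columns, which named 37 of the 74 listed genes; some of them are not reported here. Alternatives changed cells, depth, denominator, zero handling, the definition of ectoderm, the fold, the minimum and the measure of likeness.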

Additional observations from a re-analysis of the deposited data

Results flagged for a closer look

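By pooled counts, the ratio of *RSPO3* in the ectoderm to that in all other cells had opposite signs at different stages. The log2 ratio of its CPM in the ectoderm to that in all other cells was 3.41 in the HH25 library, -1.06 in that of HH29 and 2.55 in that of HH31. In the HH29 technical replicates it was -0.36 (-1.59 to 0.63), -1.13 (-3.01 to 0.24) and -2.88 (-8.19 to -0.38), the last from 1 skin UMI. The HH31 value rested on 9 skin UMIs, 4 of them in 1 cell. The intervals of the thinned shares overlapped at HH29 and at HH31. The difference between stages was not tested, as each stage is 1 library, and stage, platform and dissected tissue cannot be told apart. The ectodermal levels themselves were 20.5, 17.5 and 8.45 CPM, while those of all other cells were 1.93, 36.5 and 1.44 CPM. These ectodermal populations differ in kind. At HH25 all 12 ectodermal UMIs were in the ridge cells and skin was at 0. The ectoderm of HH29 and HH31 was a skin sub-cluster, with no sub-cluster for the ridge.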

How the results depend on the processing

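Of 182 alternative values for 44 results, 150 stayed within the error or within 1.5 times the count and 32 moved. A change of sign could be scored only for the log2 ratios, of which 0 changed sign, and not for shares or counts. Cells thinned to 1000 UMIs gave log2 ratios of ridge to skin of 4.23 for *RSPO3* and -0.74 for *GBX2*, both bounds set by the floor, and of ectoderm to other cells of 7.52 for *SP8* at HH31. The ectoderm defined by epithelial genes gave 6.39 (*FGF8*), 1.93 (*RSPO3*) and 5.68 (*SP8*) at HH25 and 4.61 (*FGF8*) and 7.35 (*SP8*) at HH31, with *RSPO3* in 0.524% of thinned cells at HH25; the cause was not tested. Unthinned ectodermal shares were 21.4% (*SP8*) and 33.6% (*GBX2*) at HH25, 4.95% (*RSPO3*) and 14.8% (*SP8*) at HH29 and 26.2% (*SP8*) at HH31. Of the 5 most similar genes, Spearman's rho kept 0 for *FGF8*, 2 for *RSPO3*, 0 for *SP8* and 0 for *GBX2*. A pseudocount of 1 CPM kept 1 for *FGF8*, 3 for *RSPO3*, 3 for *SP8* and 2 for *GBX2*. A pseudocount of 50 CPM kept 3 for *RSPO3* and 3 for *SP8*, and a minimum of 200 UMIs kept 0 for *FGF8* and 0 for *GBX2*. In ridge against skin, a minimum of 20 UMIs left 6 listed genes higher in place of 12 (fewer genes qualify), and a 3-fold limit left 1 lower in place of 3. That limit left 9 higher (of 15) and 2 lower (of 6) in the HH25 ectoderm and 6 lower (of 12) in that of HH29. A minimum of 100 UMIs, chosen after seeing the data, put 62.5% of the ridge genes higher in the HH31 cells with *FGF8* in place of 40%. Leaving out each HH29 technical replicate in turn gave -1.71 to -0.67 for *RSPO3* and 7.43 to 7.89 for *SP8* in the ectoderm, and 2.38 to 2.50 for *RSPO3* in sub-clusters 4 and 6. No paired analysis was possible because each stage is 1 library. The mean of per-cell values gave no value for *RSPO3* and *GBX2* between ridge and skin, where 1 side is 0. The depth limits every statement on the 22 ridge cells (53118 UMIs) and the 11 HH31 cells with *FGF8* (31402 UMIs).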

Other observations

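Cell cycle genes were low in the cells with *FGF8*. The sum of 14 genes, among them *TOP2A*, *CDK1* and *PCNA*, was 715 CPM in the HH25 ridge and 2138 CPM in skin (log2 ratio -1.58, -2.09 to -1.11), and 10 of the 13 genes with 10 UMIs were at least 2-fold lower, beside 12.5% over all genes. In HH31 skin it was 350 CPM in the 11 cells with *FGF8* and 1317 CPM in the others (-1.91, -2.92 to -1.07), with 2 of 14 genes called at least 2-fold lower, beside 5.12% over all genes. It was 3041 and 2911 CPM in HH29 skin cells with and without *RSPO3* (0.06). *CXCL14*, a chemokine of skin, was at 169 CPM in the HH25 ridge and 2110 CPM in skin (-3.64), and at HH31 it was at 63.7 and 694 CPM in cells with and without *FGF8* (-3.45). All these genes were chosen after their values were seen.

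In the HH25 mesenchyme (sub-cluster 1) the 138 cells with *GBX2* and the 3834 without differed in the cartilage regulator *SOX9* (5.41 and 25.8 CPM, -2.26, -5.31 to -0.39) and in *BMP2* (8.12 and 46.2 CPM, -2.51). The *SOX9* value rested on 2 UMIs in the cells with *GBX2*, and 5.36% of all genes were at least 2-fold lower there. Of the other cartilage markers, *COL2A1* was at 40.6 and 37.8 CPM (0.10, -0.75 to 0.85). *COL9A1*, *COL9A3* and *ACAN* were at 0 in the cells with *GBX2* and could not be called. *FGF-18* had a log2 ratio of 1.16. The cell cycle sum was 3638 and 3520 CPM (0.05).

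The genes next to *FGF8* and *RSPO3* on the chromosome were looked at as well, using the order of protein-coding genes in the GRCg7b assembly. *CENPW*, a centromere gene that adjoins *RSPO3*, was higher in cells with *RSPO3* than in cells without it in each of the 9 mesenchymal sub-clusters of HH29 with at least 23 cells with *RSPO3*, with log2 ratios of 1.25 to 2.20. In the distal mesenchyme (sub-cluster 8), where 13 cells held *RSPO3*, the ratio was 1.89 (1.36 to 2.37), and sub-clusters with fewer such cells were not compared apart from skin. Pooled over these 9, it was at 646 and 237 CPM (1.45, 1.35 to 1.54), with 1.54, 1.53 and 1.17 in the technical replicates. Ranked within sub-clusters, *CENPW* was 3rd of 6286 genes, after *HHEX* (1.82) and 1 unnamed gene, and 12 genes (0.191%) were at least 2-fold higher. Other cell cycle genes lay lower, with *PCNA* at -0.19 and *AURKA* at -0.16. In HH29 skin the ratio of *CENPW* was -0.19. *NPM3*, a histone chaperone gene that adjoins *FGF8*, was at 318 CPM in HH31 skin cells with *FGF8* and 23.2 CPM in those without (3.78, 2.55 to 4.90), and at 298 and 77.2 CPM in the HH25 ectoderm (1.95, 1.02 to 2.82). Whether reads of one gene were counted to its neighbour was not tested.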
